A study of Mus musculus with 12 samples.

Results

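The Hox genes encode homeodomain transcription factors and lie in 4 clusters, Hoxa to Hoxd. All genes whose symbol was Hox followed by a, b, c or d and a number were taken, which gave 39 of the 23238 gene symbols in the files, 11 in the Hoxa, 10 in the Hoxb, 9 in the Hoxc and 9 in the Hoxd cluster. They were measured by QuantSeq, in which reads are taken from the 3′ end of poly(A) RNA, in 12 kidney libraries of C57BL/6 mice. The groups were mice labelled with chronic kidney disease (CKD) under time restricted feeding (CKD TRF), mice labelled with CKD and Control mice, with 4 libraries each. The labels name the strain and the tissue, but not how CKD was induced, the feeding hours, the time of sampling, age, sex, any genotype beyond the strain, or whether the libraries of a group are different animals. The p-values below therefore measure the spread between libraries, which may be technical.

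Within a cluster the genes stand in the order in which they are used along the body axis in the embryo, from group 1 at the anterior end to group 13 at the posterior end. Genes with the same number in different clusters are paralogs and often act redundantly. In the developing mouse kidney, the group 11 genes are needed together for the metanephros to form, and the group 10 genes act in its stroma. Hox proteins bind DNA together with cofactors of the TALE class, Polycomb and trithorax proteins hold the clusters silent or active, and retinoic acid sets their early expression.

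The clusters also encode 2 families of microRNAs, miR-196 and miR-10, whose sequences are shown because miR-196 is known to act on Hox transcripts. The mature sequences, from RefSeq on GRCm38.p6, carry their seed (bases 2 to 8) in capitals. The 2 members of each family share the seed. The mature microRNAs themselves were not analysed here.
miR-196a-5p: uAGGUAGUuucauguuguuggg
miR-196b-5p: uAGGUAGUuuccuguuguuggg
miR-10a-5p: uACCCUGUagauccgaauuugug
miR-10b-5p: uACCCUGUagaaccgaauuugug
Mir196a-1 lies on chromosome 11 (96265187 to 96265208, + strand), Mir196a-2 on chromosome 15 (102973365 to 102973386, +) and Mir196b on chromosome 6 (52230129 to 52230150, −). Mir10a lies on chromosome 11 (96317186 to 96317208, +) and Mir10b on chromosome 2 (74726074 to 74726096, +).

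The longest 3′ UTR of a protein-coding transcript in GENCODE vM21 (GRCm38) was searched on the transcript strand for ACTACCT, which pairs with the miR-196 seed. It was found in 7 of the 27 tested Hox genes with a UTR (25.9%), against 854 of 12731 tested genes (6.71%), although the median UTR was 878 bases in the Hox genes and 1189 in all. Hoxa7 held 4 such sites, Hoxc8 2, and Hoxa4, Hoxa5, Hoxa9, Hoxb6 and Hoxb7 held 1 each. The sites of Hoxa7 and Hoxa9 are shown because these were the Hox genes that fell in both diseased groups, with the letters that pair with the seed in capitals.
Hoxa7, chr6:52215400-52215422, minus strand: aggcacagccaaaatACTACCTa
Hoxa7, chr6:52215363-52215385, minus strand: gagaggcactcccaaACTACCTa
Hoxa7, chr6:52215231-52215253, minus strand: caaaccatgatcaatACTACCTa
Hoxa7, chr6:52215210-52215232, minus strand: tactactagccctaaACTACCTa
Hoxa9, chr6:52223900-52223922, minus strand: gcaaaaggaaagaaaACTACCTt
The 4 Hoxa7 sites lie in the GENCODE 3′ UTR but past the end that RefSeq gives the gene (52215623 to 52218573). The miR-10 match, ACAGGGT, was in 2 of 27 Hox genes (7.41%), Hoxa3 and Hoxb3, against 14.5% of all tested genes. A match is a description of the letters and not a measured target.

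Library sizes, recovered from the steps between low values, were 14141373 to 17204330 reads in CKD TRF, 14508104 to 16852509 in CKD and 10985786 to 12806416 in Control. Values are given as scaled reads, which are reads multiplied by the scaling of their library, with 940904 to 1179702 scaled reads in a library. QuantSeq reads one end of each transcript, so these numbers are not multiplied by transcript length, and levels are compared between genes on that scale only. A count of 0 allows up to 0.168 to 0.306 scaled reads, for counting error alone. Proximal tubule markers summed to 31000 to 39200 scaled reads in CKD TRF, 27900 to 34300 in CKD and 50900 to 69100 in Control, so the kidney label held in all groups.

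Most Hox genes of groups 2 to 11 were transcribed in the kidney, and the genes at both ends of the clusters were at or near 0. The filter on mean level (upper 60% of genes over all libraries) passed 28 of the 39 members, all of which were above 0 in every library. The other 11 were at or near 0 in most libraries. Of these, Hoxa13, Hoxc12 and Hoxc13 had no read in any library, and no member of groups 12 or 13 was tested.

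In Control kidneys Hoxd8 was the most abundant member, at 197 ± 30.3 scaled reads (SD, n = 4). It was followed by Hoxa10 at 98.5 ± 4.39, Hoxa9 at 87.7 ± 3.79, Hoxa7 at 68.3 ± 6.02, Hoxb7 at 58.7 ± 5.97 and Hoxc9 at 40.6 ± 10.0. The Control ranges of Hoxd8, Hoxa10, Hoxa9 and Hoxa7 did not overlap, those of Hoxa7 and Hoxb7 did, and those of Hoxb7 and Hoxc9 did not. From Hoxc9 down to Hoxd4 (10.0 ± 3.46) each gene's range overlapped that of the next, and the lowest tested gene was Hoxa2 at 0.613 ± 0.387. Hoxd8 stood alone in its cluster, since the next Hoxd gene, Hoxd9, was at 21.4 ± 1.8.

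**Figure D1:**
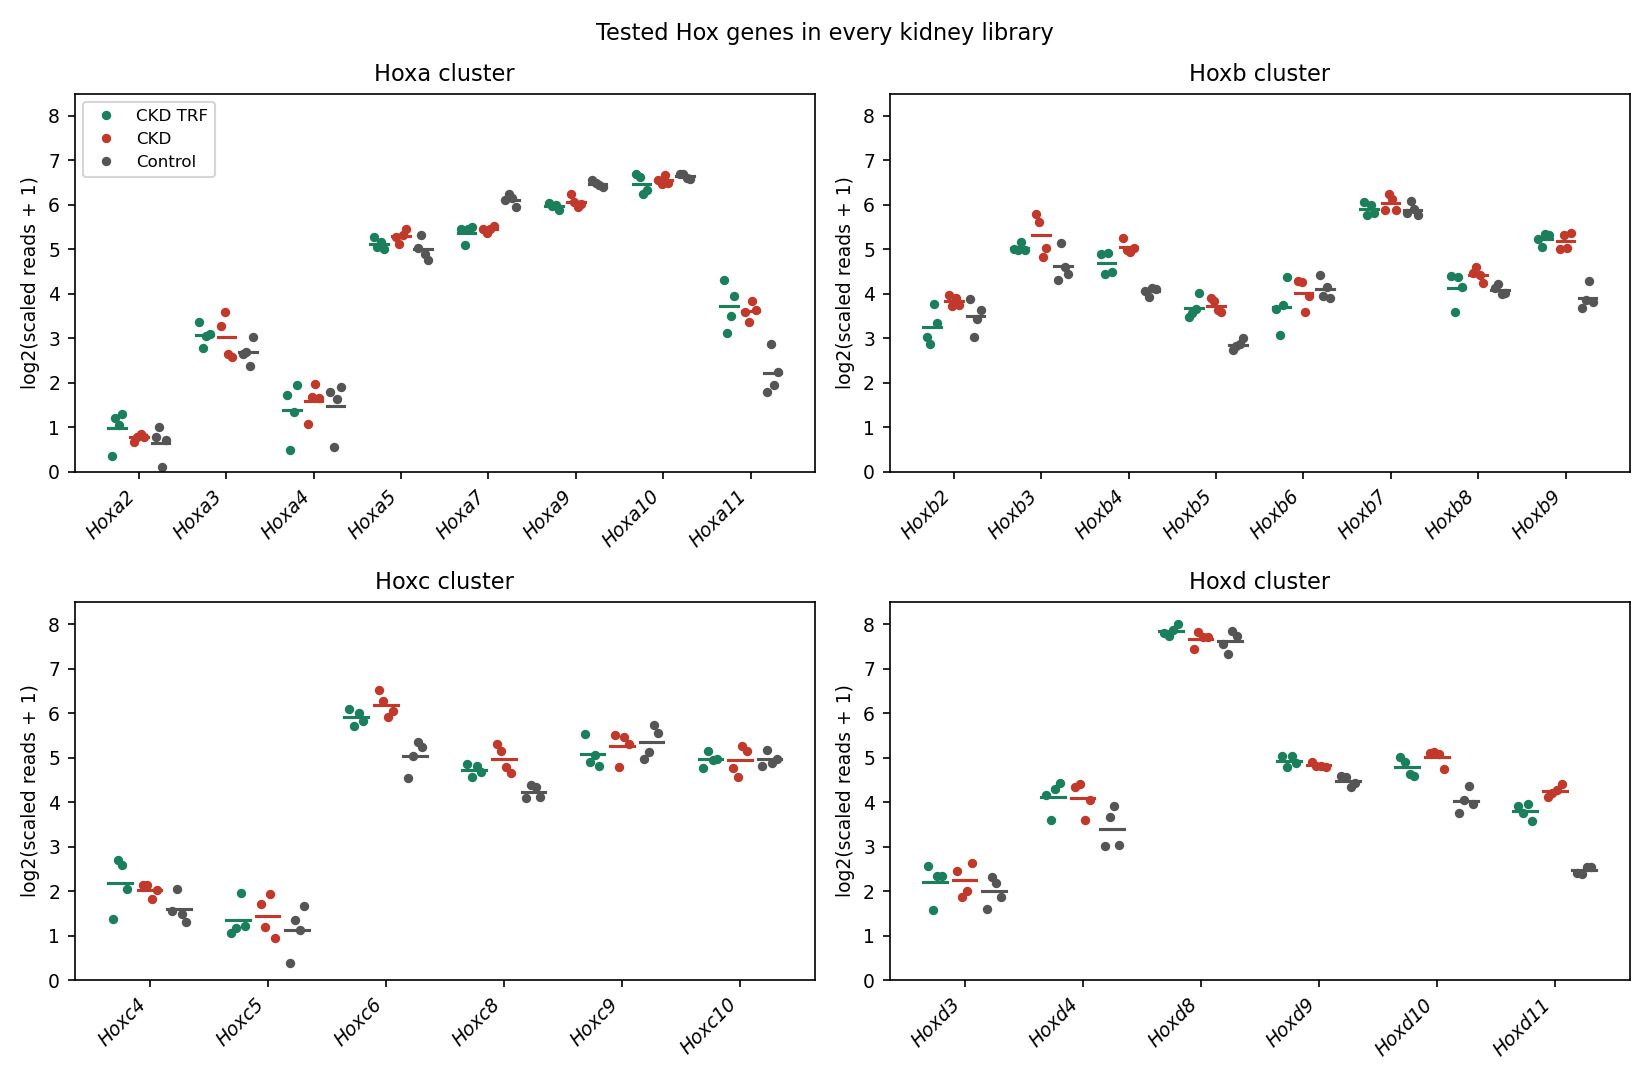
Level of each of the 28 tested Hox genes, as log2 of scaled reads plus 1, in every library of CKD TRF, CKD and Control (left to right within each gene). Points are libraries and bars are group means (n = 4). Hoxd8 is the highest gene in all groups, Hoxd11, Hoxb9 and Hoxa11 are higher in both diseased groups than in Control, and Hoxa7 and Hoxa9 are lower.

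CKD kidneys differed from Control in 13 of the 28 tested Hox genes, with 11 higher and 2 lower (limma, Benjamini-Hochberg adjusted over 13943 genes, threshold 0.05). Hoxd11, Hoxa11, Hoxb9 and Hoxc6 rose most, to 2.23 to 3.97 times the Control mean, and Hoxa7 and Hoxa9 fell. Of all genes tested, 45.4% passed in this comparison, 23.6% higher and 21.8% lower. The Hox share of 46.4% was close to that background, with 39.3% higher and 7.14% lower. The median change of the 28 was 0.34 on the log2 scale, against 0.02 over all genes. The 4 libraries of each group did not overlap in 12 Hox genes, 10 higher and 2 lower, against 39.5% of all genes (20.3% higher, 19.2% lower).

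CKD TRF kidneys differed from Control in 12 Hox genes, the same ones except Hoxb3 and in the same directions. The 2 comparisons share the Control libraries. Here 37.5% of all genes passed, 19.5% higher and 17.9% lower, and the Hox share was 42.9% (35.7% higher, 7.14% lower). The median change was 0.28 on the log2 scale over the Hox genes and 0.01 over all. The groups did not overlap in 11 Hox genes, 9 higher and 2 lower, against 31.9% of all genes (16.3% higher, 15.6% lower).

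By cluster, the genes that passed in CKD against Control were 3 of 8 in Hoxa (1 higher, 2 lower), 4 of 8 in Hoxb, 2 of 6 in Hoxc and 4 of 6 in Hoxd, all higher in the last 3. Median log2 changes were 0.12, 0.52, 0.37 and 0.52 in that order. In CKD TRF against Control the counts were 3, 3, 2 and 4, with medians of 0.01, 0.23, 0.35 and 0.58. The Hoxa cluster was the only one with a gene that fell in these comparisons.

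The change was uneven along each cluster. In Hoxd it was 1.78 at Hoxd11, 0.98 at Hoxd10, 0.34 at Hoxd9, 0.06 at Hoxd8, 0.69 at Hoxd4 and 0.25 at Hoxd3, as log2 differences of CKD from Control. From Hoxd11 to Hoxd8 the change was thus smaller at each gene, and Hoxd8 did not pass. In Hoxb it was 1.27 at Hoxb9, 0.34 at Hoxb8, 0.14 at Hoxb7, −0.08 at Hoxb6, 0.88 at Hoxb5, 0.99 at Hoxb4, 0.70 at Hoxb3 and 0.34 at Hoxb2. The genes that passed lay at the posterior end and in the anterior part, with Hoxb6 to Hoxb8 between them not passing. In Hoxa the order from Hoxa11 down was 1.40, −0.09 (Hoxa10), −0.41 (Hoxa9), −0.67 (Hoxa7), 0.29 (Hoxa5), 0.12 (Hoxa4), 0.33 (Hoxa3) and 0.12 (Hoxa2). In Hoxc, Hoxc10 and Hoxc9 were at −0.02 and −0.08, Hoxc8 at 0.74, Hoxc6 at 1.15, Hoxc5 at 0.31 and Hoxc4 at 0.44.

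**Figure D2:**
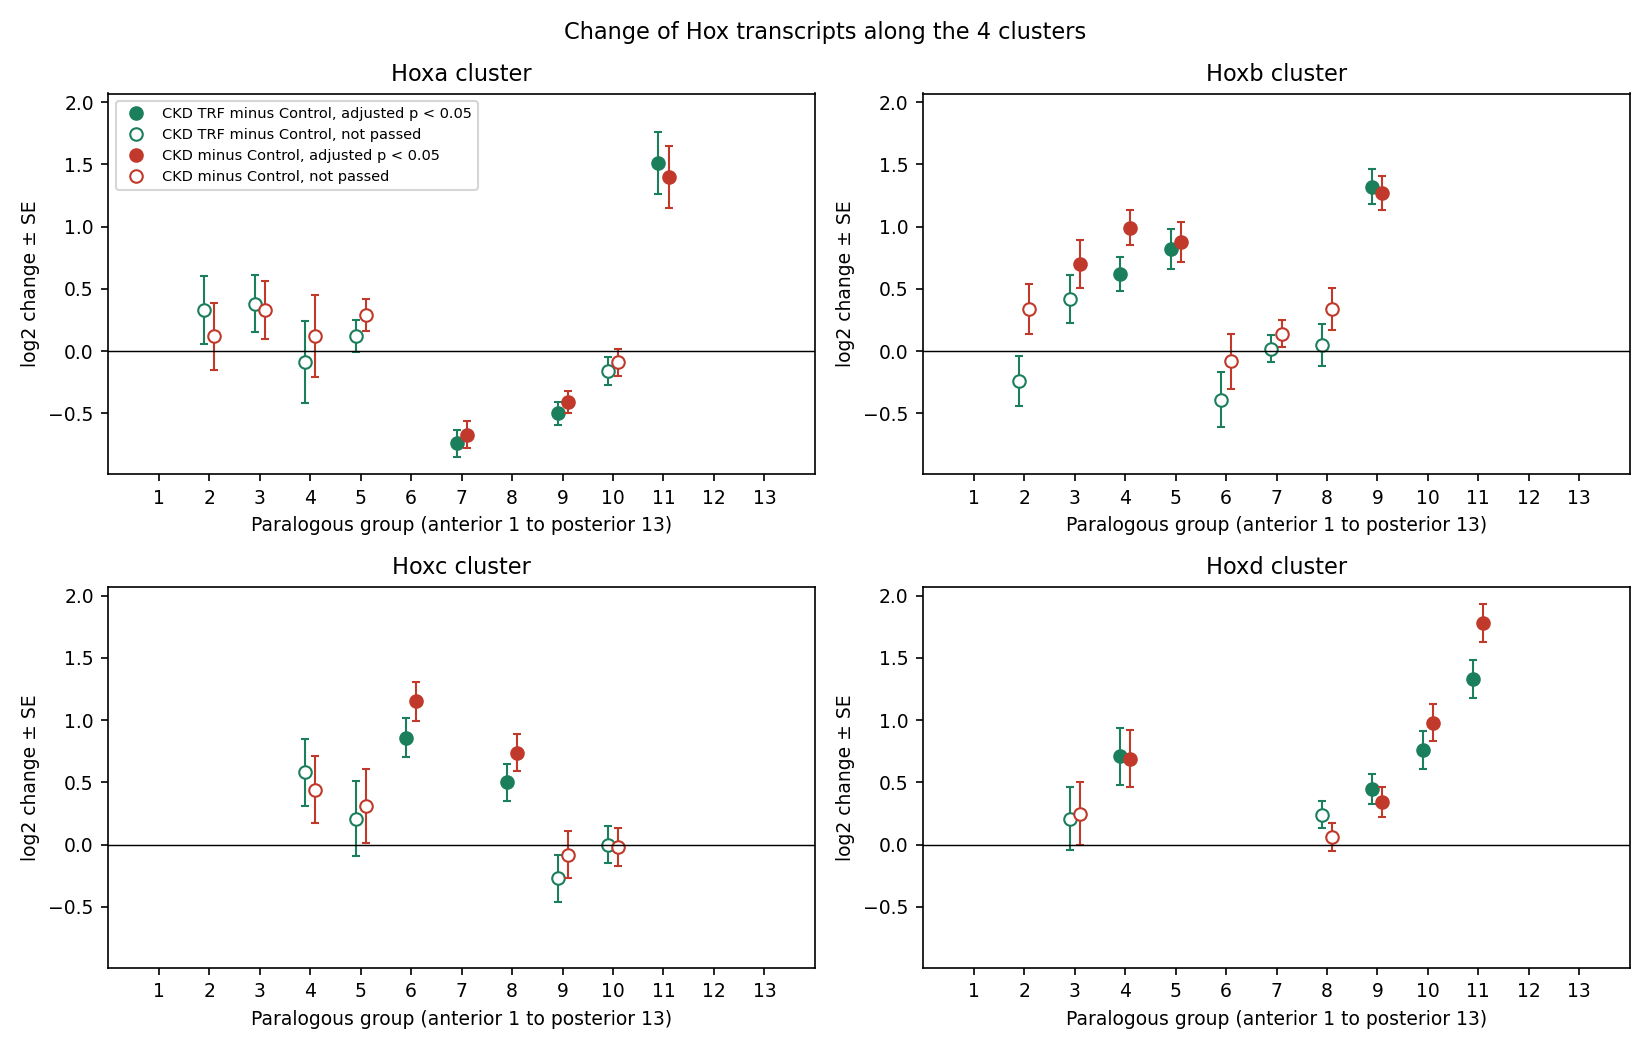
Log2 change from Control (± SE) of each tested Hox gene against its paralogous group, for CKD TRF (green, left) and CKD (red, right). Filled points have an adjusted p below 0.05 and open ones do not. The tested group 11 genes, Hoxa11 and Hoxd11, are at 1.33 to 1.78, and Hoxa7 and Hoxa9 are below 0. Hoxb6 to Hoxb8 and Hoxd8 are open points in both comparisons.

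Group 11 genes are required for kidney formation in the mouse embryo, and the 2 tested ones, Hoxd11 and Hoxa11, gave the 2 largest changes. Hoxc11 was not tested, at 0.386 ± 0.328 scaled reads in CKD TRF, 0.122 ± 0.0461 in CKD and 0.163 ± 0.154 in Control. Hoxd11 (chromosome 2, 74679558 to 74687016) had 14.2, 12.5, 14.5 and 10.9 scaled reads in CKD TRF, 16.3, 17.4, 18.3 and 20.1 in CKD, and 4.29, 4.24, 4.85 and 4.84 in Control. The 3 groups did not overlap, with CKD highest and Control lowest. Its log2 change in CKD against Control was 1.78 ± 0.15 (SE, adjusted p = 2.57e-08, limma), 3.97 times the Control mean, and in CKD TRF against Control 1.33 ± 0.15 (adjusted p = 1.74e-06).

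Hoxa11 (chromosome 6, 52242105 to 52245810) had 18.8, 7.69, 10.3 and 14.5 scaled reads in CKD TRF, 11, 9.36, 13.2 and 11.5 in CKD, and 2.45, 6.27, 2.89 and 3.74 in Control. All diseased libraries were above all Control libraries, and CKD TRF spread widely around CKD. The change was 1.40 ± 0.25 in CKD (adjusted p = 0.000136, limma) and 1.51 ± 0.25 in CKD TRF (adjusted p = 9.08e-05), each against Control. Hoxa11 shares 800 exon bases with the antisense RNA Hoxa11os, so without a stated strand setting their reads cannot be told apart. Hoxa11os, at 1.76 ± 0.563, 1.75 ± 0.184 and 1.05 ± 0.541 scaled reads in CKD TRF, CKD and Control, did not pass.

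RefSeq's promoter windows, which run from 250 bases before to 50 after a gene's start on GRCm38.p6, were searched on both strands for a GC box (GGGCGG), a PBX-HOX motif (TGATNNAT), a nuclear receptor motif (AGGTCA) and a CCAAT box (CCAAT). There were 24 windows for 22 of the Hox genes. GC boxes were in 41.7% of them against 35.7% of all 32851 promoters, PBX-HOX motifs in 16.7% against 8.85%, nuclear receptor motifs in 29.2% against 16.3% and CCAAT boxes in 62.5% against 37.4%. Hox windows held a median of 14 CpG pairs, against 7 in all promoters. The windows of the gene that rose most and the gene that fell most are shown, with motif matches in capitals.
Hoxd11, chr2:74682073-74682372, plus strand: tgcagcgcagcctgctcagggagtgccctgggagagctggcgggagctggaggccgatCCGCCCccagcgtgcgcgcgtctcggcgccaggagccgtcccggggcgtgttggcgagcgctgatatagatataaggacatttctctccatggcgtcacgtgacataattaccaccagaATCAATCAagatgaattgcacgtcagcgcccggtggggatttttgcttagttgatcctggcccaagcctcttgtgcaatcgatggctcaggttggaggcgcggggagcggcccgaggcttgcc
Hoxa7, chr6:52218524-52218823, minus strand: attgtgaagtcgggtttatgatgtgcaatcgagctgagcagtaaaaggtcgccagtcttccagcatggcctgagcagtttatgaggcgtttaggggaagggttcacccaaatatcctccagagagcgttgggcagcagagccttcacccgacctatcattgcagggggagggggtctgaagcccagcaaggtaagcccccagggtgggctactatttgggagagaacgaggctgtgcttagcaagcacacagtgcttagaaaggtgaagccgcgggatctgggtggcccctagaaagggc
The Hoxd11 window held 1 GC box and 1 PBX-HOX match, both read on the other strand, and 25 CpG pairs. The Hoxa7 window held none of these motifs and 9 CpG pairs. RefSeq lists another Hoxd11 start, at 74679308 to 74679607, with 4 CpG pairs and none of the motifs. These matches describe the letters only.

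Among the Hoxd genes, Hoxd10 (chromosome 2, 74684273 to 74695106), a posterior gene that patterns hindlimb and lumbar spinal cord, had 31.4, 28.9, 23.9 and 22.9 scaled reads in CKD TRF, 33.3, 34.2, 32.7 and 25.6 in CKD, and 12.5, 15.7, 19.5 and 14.5 in Control. Every diseased library was above every Control library. The change was 0.98 ± 0.15 in CKD (adjusted p = 2.81e-05, limma) and 0.76 ± 0.15 in CKD TRF (adjusted p = 0.000568), against Control.

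Hoxd9 (74697763 to 74700208), its neighbour, had 31.9, 26.5, 31.8 and 28.3 scaled reads in CKD TRF, 28.8, 27.3, 27.1 and 26.6 in CKD, and 23.2, 22.7, 19.4 and 20.5 in Control. The difference was small but the Control libraries were the lowest throughout, with changes of 0.34 ± 0.12 in CKD (adjusted p = 0.0212, limma) and 0.45 ± 0.12 in CKD TRF (adjusted p = 0.00498). The CKD call was lost in 7 alternative fits, among them those without CKD replicate 1 (adjusted p = 0.0558) and without Control replicate 3 (0.0584).

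Hoxd8 (74704615 to 74707933), the most abundant Hox transcript, had 223, 211, 232 and 256 scaled reads in CKD TRF, 173, 225, 209 and 208 in CKD, and 186, 160, 229 and 211 in Control. The groups overlapped, and the change did not pass in CKD (0.06 ± 0.11) or CKD TRF (0.24 ± 0.11, adjusted p = 0.106, limma) against Control. Without Control replicate 3 the CKD TRF value was 0.32 and passed (adjusted p = 0.0357).

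Hoxd4 (74721978 to 74729160), a cervical patterning gene with a retinoic acid response known in the mouse embryo, had 16.9, 11.1, 18.7 and 20.4 scaled reads in CKD TRF, 19.2, 20.1, 11 and 15.6 in CKD, and 7.04, 11.8, 14 and 7.21 in Control. The groups overlapped, although the change passed in CKD (0.69 ± 0.23, adjusted p = 0.019, limma) and CKD TRF (0.71 ± 0.23, adjusted p = 0.0189) against Control. Both calls were lost in 9 alternative fits each, including those without Control replicate 1 (adjusted p = 0.0714 and 0.0713) and without Control replicate 4 (0.0663 and 0.0646). The CKD call was also lost without CKD replicate 1 or 2, and the CKD TRF call without CKD TRF replicate 3 or 4. Hoxd4 shares 388 exon bases with Hoxd3 and 347 with Hoxd3os1, so its reads are uncertain.

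In the Hoxb cluster on chromosome 11, Hoxb9 (96271330 to 96276595), a thoracic patterning gene, had 36.4, 32.0, 39.6 and 39.0 scaled reads in CKD TRF, 31.2, 39.3, 31.6 and 40.1 in CKD, and 11.7, 13.6, 18.6 and 13.2 in Control. Diseased and Control libraries were far apart, while CKD TRF and CKD overlapped almost fully. The change was 1.27 ± 0.14 in CKD (adjusted p = 8.33e-07, limma) and 1.32 ± 0.14 in CKD TRF (adjusted p = 8.64e-07).

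Hoxb4 (96318267 to 96321638), known for expanding blood stem cells when overexpressed, had 28.5, 20.6, 29.3 and 21.4 scaled reads in CKD TRF, 37.0, 30.4, 29.8 and 31.7 in CKD, and 15.6, 14.2, 16.6 and 16.3 in Control. The 3 groups did not overlap, with CKD TRF between the others. The change was 0.99 ± 0.14 in CKD (adjusted p = 9.93e-06, limma) and 0.62 ± 0.14 in CKD TRF (adjusted p = 0.00141), against Control.

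Hoxb5 (96303512 to 96306121) had 10.1, 10.8, 11.6 and 15.1 scaled reads in CKD TRF, 13.9, 13.3, 11.4 and 11 in CKD, and 5.62, 6.08, 6.29 and 7.03 in Control. It was higher in all diseased libraries, by 0.88 ± 0.16 in CKD (adjusted p = 0.000225, limma) and 0.82 ± 0.16 in CKD TRF (adjusted p = 0.000621). It shares 100 exon bases with the antisense Hoxb5os, which at 14.1 ± 1.55, 10.9 ± 2.18 and 11.8 ± 2.16 scaled reads in CKD TRF, CKD and Control did not pass.

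Hoxb3 (96307101 to 96347930) had 31.3, 30.7, 34.6 and 30.6 scaled reads in CKD TRF, 54.0, 47.8, 27.6 and 31.7 in CKD, and 18.8, 34.3, 23.1 and 20.6 in Control. CKD replicates 1 and 2 were the highest, and the groups overlapped. It passed in CKD against Control (0.70 ± 0.19, adjusted p = 0.00542, limma) but not in CKD TRF (0.42 ± 0.19, adjusted p = 0.092). The CKD call was lost with the urothelial marker level as a covariate (0.54, adjusted p = 0.264) and without the libraries with fat markers (0.22, adjusted p = 0.701). Without Control replicate 2, the CKD TRF value was 0.59 and passed (adjusted p = 0.0145).

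Hoxb7 (96285604 to 96290163), whose promoter is widely used to mark the ureteric bud and collecting duct, had 66.2, 53.5, 63.0 and 54.9 scaled reads in CKD TRF, 58.2, 74.4, 69.4 and 57.9 in CKD, and 55.5, 67.0, 58.8 and 53.4 in Control. The groups overlapped and no comparison passed. The 95% interval of the CKD TRF minus CKD difference was −0.36 to 0.11 on the log2 scale.

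In the Hoxc cluster on chromosome 15, Hoxc6 (102998226 to 103011882), a thoracic gene, had 67.4, 51.3, 63.0 and 55.8 scaled reads in CKD TRF, 90.8, 76.5, 59.4 and 65.2 in CKD, and 22.2, 31.9, 40 and 36.8 in Control. It was the most abundant Hoxc gene in the diseased groups but not in Control. The change was 1.15 ± 0.16 in CKD (adjusted p = 9.78e-06, limma) and 0.86 ± 0.16 in CKD TRF (adjusted p = 0.000277).

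Hoxc8 (102990539 to 102994275), a gene of the lower thorax with 2 miR-196 site matches, had 27.9, 22.8, 27.1 and 24.5 scaled reads in CKD TRF, 38.4, 34.4, 26.6 and 24.4 in CKD, and 16.0, 20, 19.3 and 16.3 in Control. All diseased libraries were above all Control libraries. The change was 0.74 ± 0.15 in CKD (adjusted p = 0.000394, limma) and 0.50 ± 0.15 in CKD TRF (adjusted p = 0.0117). With the urothelial marker level as a covariate both calls were lost (0.696, adjusted p = 0.0615, and 0.447, adjusted p = 0.306, limma).

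Hoxc9 (102977032 to 102984444), the most abundant Hoxc gene in Control, had 45.4, 28.8, 32.2 and 27.1 scaled reads in CKD TRF, 44.8, 26.5, 43.2 and 38.7 in CKD, and 30.4, 34.2, 52.0 and 45.8 in Control. These ranges overlapped and no comparison passed. Hoxc10 likewise had group means of 30.3 ± 3.23, 30.2 ± 6.82 and 30.3 ± 3.5 scaled reads in CKD TRF, CKD and Control.

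The genes that fell were neighbours in the Hoxa cluster on chromosome 6. Hoxa7 (52215623 to 52218573), which patterns thoracic vertebrae, had 42.6, 33.1, 43.0 and 44.0 scaled reads in CKD TRF, 42.7, 40, 42.8 and 44.8 in CKD, and 68.4, 74.9, 69.7 and 60.4 in Control. All diseased libraries were well below all Control libraries, at 0.623 (CKD) and 0.595 (CKD TRF) times the Control mean. The change was −0.67 ± 0.11 in CKD (adjusted p = 7.06e-05, limma) and −0.74 ± 0.11 in CKD TRF (adjusted p = 3.51e-05). Hoxa7 shares 586 exon bases with the antisense Hoxaas3, which was at 0.654 ± 0.548, 1.33 ± 0.67 and 1.28 ± 1.81 scaled reads in CKD TRF, CKD and Control.

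Hoxa9 (52223097 to 52227370), a regulator of blood progenitors, had 64.8, 61.8, 62.9 and 57.6 scaled reads in CKD TRF, 74.1, 65.7, 61.1 and 63.4 in CKD, and 92.5, 88.9, 85.6 and 83.9 in Control. Again no diseased library reached the Control range. The change was −0.41 ± 0.09 in CKD (adjusted p = 0.00159, limma) and −0.50 ± 0.09 in CKD TRF (adjusted p = 0.000343). Among tested Hox genes with a UTR, both that fell in CKD carry the miR-196 site shown above. So did 1 of the 10 with a UTR that rose and 4 of 15 that did not pass. A part of these matches in the changes was not tested.

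Hoxa10 (52231197 to 52240854), a stromal gene of the developing kidney, had 102, 97.9, 75 and 79.4 scaled reads in CKD TRF, 93.5, 87.2, 101 and 88.5 in CKD, and 102, 103, 95.7 and 93.9 in Control. The groups overlapped, and its change did not pass in CKD (−0.09 ± 0.11) or CKD TRF (−0.16 ± 0.11). Hoxa5, a regulator of lung development, did not pass in CKD (0.29 ± 0.13, adjusted p = 0.0752, limma), but did without Control replicate 2 (0.40, adjusted p = 0.0133). Hoxa3 and its antisense Hoxaas2, with 503 shared exon bases, were at nearly the same level, 7.47 ± 1.37 and 7.22 ± 1.52 scaled reads in CKD TRF, 7.48 ± 2.89 and 7.24 ± 2.89 in CKD, and 5.53 ± 1.26 and 5.42 ± 1.06 in Control, so their reads cannot be told apart. In all, 8 of the 28 tested genes share exon bases with another gene of the files, 4 of them with another Hox gene (Hoxc5 with Hoxc10, and Hoxd3 with Hoxd4). Exon bases are also shared with GENCODE genes that are not in the files. Among these, Hoxb3 shares 2250 and Hoxb2 953 bases with the antisense Hoxb3os. Hoxd11 shares 455 and Hoxd10 104 bases with Gm28309 on the same strand. Whether their reads were counted for the Hox genes was not tested.

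The remaining tested genes (Hoxa2, Hoxa4, Hoxb2, Hoxb6, Hoxb8, Hoxc4, Hoxc5 and Hoxd3) changed by −0.39 to 0.58 on the log2 scale in CKD TRF, and by −0.08 to 0.44 in CKD, against Control, and none passed. Hoxb8 had group means of 17.0 ± 4.26, 20.6 ± 2.16 and 16.1 ± 1.27 scaled reads in CKD TRF, CKD and Control. All its CKD libraries were above all Control libraries, with an adjusted p of 0.102 (limma). Leaving out CKD TRF replicate 2, which shares the spread estimate, brought that to 0.0475. Hoxc4 passed in CKD TRF against Control without CKD TRF replicate 1 (0.85) or Control replicate 2 (0.73), and Hoxb6 passed as lower without CKD TRF replicate 4 (−0.61).

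Time restricted feeding was set against CKD directly. No Hox gene passed in CKD TRF against CKD, and 0% of all genes did (limma). At an unadjusted p below 0.05 there were 3 Hox genes, Hoxb2, Hoxb4 and Hoxd11, and 889 of all genes (6.38%), and no alternative test gave an adjusted call for a Hox gene. The 28 changes ran from −0.58 to 0.21 with a median of −0.10, against −0.01 over all genes, and 19 were negative.

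Hoxd11 and Hoxb4 were the Hox genes whose CKD TRF and CKD libraries did not overlap, both lower in CKD TRF, against 4.50% of all genes (2.37% higher, 2.13% lower). Hoxd11 changed by −0.45 on the log2 scale (95% interval −0.77 to −0.13, unadjusted p = 0.00835 and adjusted p = 0.705, limma). Hoxb4 changed by −0.37 (−0.66 to −0.08, unadjusted p = 0.0148, adjusted p = 0.71). Hoxb2 had 7.16, 6.36, 12.7 and 9.13 scaled reads in CKD TRF, 14.7, 12.3, 13.9 and 12.5 in CKD, and 13.8, 7.19, 9.78 and 11.4 in Control. One CKD TRF library lay inside the CKD range, and the change was −0.58 (−1.01 to −0.16, unadjusted p = 0.00983, adjusted p = 0.705). For Hoxb9 the interval was −0.25 to 0.35, for Hoxa11 −0.41 to 0.63, for Hoxa7 −0.30 to 0.16 and for Hoxa9 −0.29 to 0.10.

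The mean sum of the Hoxa cluster was lower, and those of the other clusters higher, in the diseased groups than in Control. Hoxa summed to 250 ± 20.4 scaled reads in CKD TRF, 262 ± 8.83 in CKD and 298 ± 17.6 in Control. Hoxb summed to 204 ± 21.7, 235 ± 22.1 and 162 ± 10.1, Hoxc to 154 ± 13.5, 177 ± 19.3 and 125 ± 19.2, and Hoxd to 320 ± 21.2, 301 ± 21.0 and 251 ± 31.7, in the same order of groups (SD, n = 4 each). As a share of all Hox reads, Hoxa made up 26.9% ± 1.73 in CKD TRF, 26.9% ± 1.30 in CKD and 35.7% ± 2.95 in Control. The sums are led by a few abundant genes and were not tested.

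**Figure D3:**
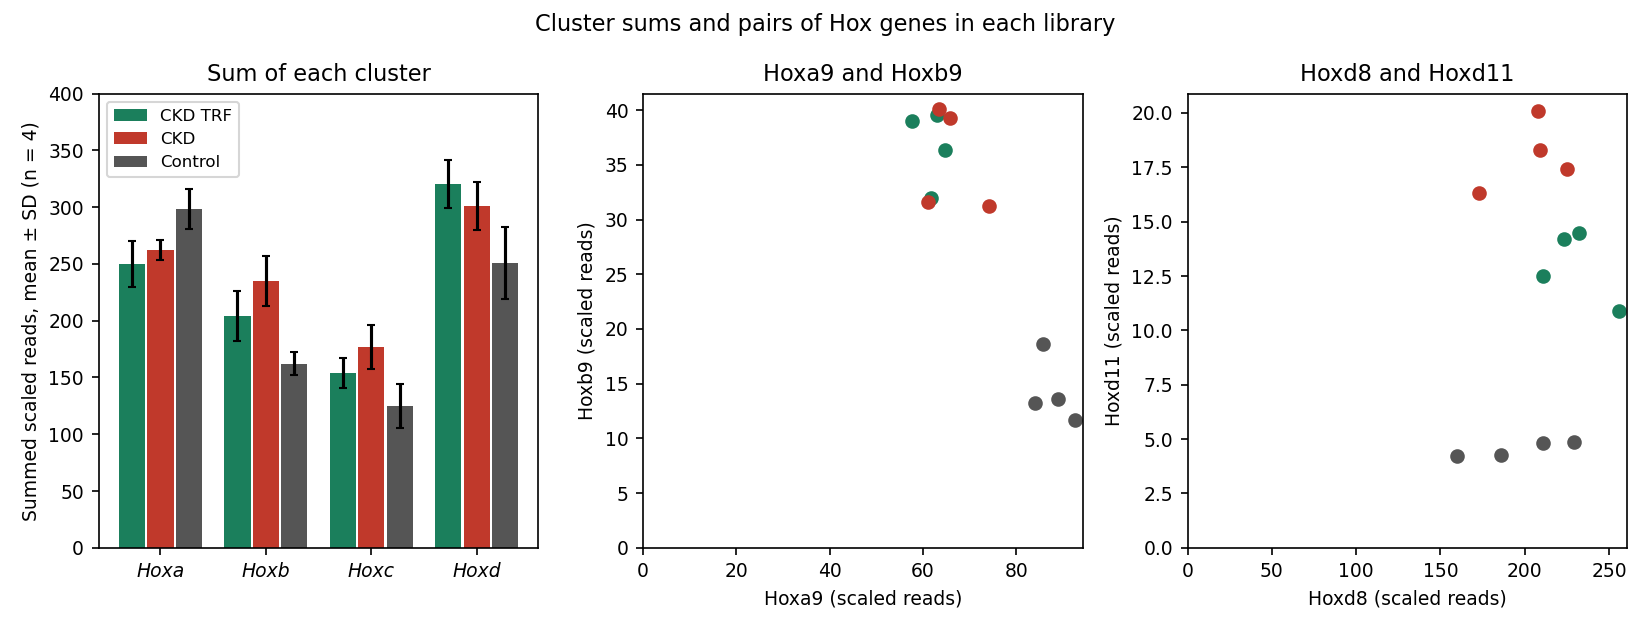
Left, summed scaled reads of each cluster in CKD TRF, CKD and Control (bars, mean; whiskers, SD; n = 4). Middle and right, Hoxb9 against Hoxa9 and Hoxd11 against Hoxd8 in scaled reads, with 1 point per library. Control libraries sit at high Hoxa9 and low Hoxb9, with no overlap with the diseased ones, and the Hoxd11 levels of the 3 groups separate while the Hoxd8 levels overlap.

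Calls differed between paralogs. In group 9, Hoxa9 fell, Hoxb9 and Hoxd9 rose and Hoxc9 did not pass. Within a library, Hoxa9 was above Hoxb9 by 0.74 ± 0.17 log2 units in CKD TRF, 0.88 ± 0.26 in CKD and 2.56 ± 0.30 in Control (SD, n = 4 each). The same difference for Hoxa10 and Hoxd10 was 1.69 ± 0.06, 1.53 ± 0.18 and 2.61 ± 0.29, and for Hoxb6 and Hoxc6 −2.19 ± 0.51, −2.17 ± 0.14 and −0.94 ± 0.56. Hoxa7 was below Hoxb7 in all diseased libraries (−0.54 ± 0.16 in CKD TRF, −0.59 ± 0.24 in CKD) and above it in Control (0.22 ± 0.06).

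Differences within the library were compared for 28 pairs of paralogs in the 3 comparisons, 84 two-sided exact permutation tests in all. The smallest p that 4 against 4 libraries allow is 0.0286. It was reached by 10 pairs in CKD against Control, 9 in CKD TRF against Control and 1 (Hoxa2 and Hoxb2) in CKD TRF against CKD. Adjusted over the 84 exact tests these became 0.12, so none passed. With a floor of 0.0286, a pair could pass only if most of the 84 tests reached that floor. Not passing therefore says little about a single pair.

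Genes that work with Hox proteins or on their clusters were followed as lists. Of the 8 tested TALE cofactors, 4 rose in CKD against Control and 3 in CKD TRF against Control, and none fell. The shares of 50% and 37.5% were near the 45.4% and 37.5% of all genes that passed in either direction. All these calls were higher, against 23.6% and 19.5% of all genes that were higher. Pknox2 was at 3.33 ± 0.644 scaled reads in CKD TRF, 3.19 ± 0.673 in CKD and 0.936 ± 0.263 in Control. Meis1, a partner of posterior Hox proteins, was at 6.76 ± 2.58, 7.93 ± 1.73 and 3.51 ± 1.3 in the same order of groups. Their log2 changes in CKD were 1.11 and 1.02, and that of Meis3 was 0.81. The list's median change was 0.39 in CKD and 0.24 in CKD TRF against Control.

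Of 23 tested Polycomb and trithorax regulators, 8 rose and none fell in CKD against Control, and 5 rose and 1 fell in CKD TRF against Control. These shares, 34.8% and 26.1%, were below the 45.4% and 37.5% of all genes that passed in either direction. By direction, 34.8% were higher in CKD, against 23.6% of all genes, and none lower, against 21.8%. In CKD TRF 21.7% were higher and 4.35% lower, against 19.5% and 17.9% of all genes. Kmt2a, the histone methyltransferase that keeps Hox clusters active, was at 87.9 ± 8.54 scaled reads in CKD TRF, 106 ± 11.5 in CKD and 55.9 ± 14.5 in Control, a change of 0.94 ± 0.15 in CKD (adjusted p = 3.72e-05, limma). Kdm6a and Kdm6b, demethylases that remove the Polycomb mark, changed by 0.65 and 0.64 in CKD, and Pcgf2 by 0.49. Ring1, a Polycomb ubiquitin ligase, was the one that fell in CKD TRF against Control (−0.64 ± 0.24, adjusted p = 0.0422, limma). Ring1 and Cbx8 were at −0.56 and −0.55 in CKD, where neither passed (adjusted p = 0.0644 and 0.12). The list's median was 0.15 in CKD and 0.13 in CKD TRF.

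Of 14 tested genes of retinoic acid handling, 8 rose in each comparison with Control and none fell. That is 57.1% higher, against 23.6% of all genes in CKD and 19.5% in CKD TRF. In either direction 45.4% and 37.5% of all genes passed. Cdx1, Cdx2 and Cdx4, listed with them as Cdx input, were not tested. Aldh1a2, an enzyme that makes retinoic acid, was at 10.4 ± 3.53 scaled reads in CKD TRF, 11.7 ± 3.14 in CKD and 1.48 ± 0.677 in Control, a change of 2.36 ± 0.26 in CKD (adjusted p = 7.16e-07, limma). Aldh1a1 rose too (1.46 in CKD). Aldh1a3 passed (2.36 in CKD) but was uneven, with 19.3, 1.39, 17.5 and 17.6 scaled reads in CKD TRF and 1.75, 24.9, 1.16 and 19.1 in CKD, against 0.508 ± 0.451 in Control. Its high libraries were the ones with urothelial marker sums of 128 to 178 scaled reads, and their part in the change was not tested. Cyp26b1, an enzyme that breaks retinoic acid down, had the most negative value of the list in CKD, −1.29 ± 0.76 (adjusted p = 0.176, limma), and was at −0.36 in CKD TRF against Control, passing in neither. Cdx1 and Cdx2, which activate Hox genes in the embryo, had no read in any library. The list's median was 0.74 in CKD and 0.67 in CKD TRF.

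Of 10 tested kidney patterning genes, 4 rose and 1 fell in each comparison with Control, or 50%, against 45.4% of all genes in CKD and 37.5% in CKD TRF. By direction, 40% were higher and 10% lower. Of all genes, 23.6% were higher and 21.8% lower in CKD, and 19.5% and 17.9% in CKD TRF. Gata3 (1.30 in CKD), Foxd1 (1.16), Pax2 (0.79) and Wt1 (0.60) rose, and Emx2, a ureteric bud gene, fell by 0.57 on the log2 scale in CKD. The list's median was 0.27 in CKD and 0.34 in CKD TRF, and Six2, the marker of nephron progenitors, was at 0 throughout.

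The genes that flank the clusters moved in both directions. Of 15 tested, 3 rose and 3 fell in each comparison with Control, or 40%, close to the 45.4% and 37.5% of all genes, with median changes of 0.02 in CKD and −0.10 in CKD TRF. Hibadh, which flanks Hoxa, was at 430 ± 26.8 scaled reads in CKD TRF, 393 ± 38.2 in CKD and 702 ± 61.9 in Control. Skap1 and Cbx1, near Hoxb, changed by 1.11 and −0.60 in CKD, and Snx10 by 0.61. None of the 7 tested RNAs of the clusters passed in any comparison, with a median of 0.28 in CKD and 0.25 in CKD TRF against Control. Hotairm1, at the anterior end of Hoxa, was at 20.5 ± 2.7 scaled reads in CKD TRF, 16.8 ± 1.71 in CKD and 21.6 ± 6.17 in Control, and Hottip had no read. None of the genes of these lists passed in CKD TRF against CKD.

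The makeup of the tissue differed between the groups beside these changes. In bulk kidney, fewer cells of a type and less RNA per cell cannot be told apart. Fibroblast markers summed to 732 to 890 scaled reads in CKD TRF, 912 to 1020 in CKD and 158 to 188 in Control, and all 8 rose in both diseased groups. Leukocyte markers summed to 153 to 205, 184 to 227 and 86.6 to 91.9 in the same order, and 6 of 7 tested rose in each. Collecting duct markers summed to 706 to 1190 in CKD TRF, 677 to 987 in CKD and 600 to 782 in Control, with 7 of 14 higher and 2 lower in CKD and 6 higher and 2 lower in CKD TRF. Of the 11 proximal tubule markers, 7 fell in CKD and 6 in CKD TRF. Of all genes tested, 23.6% were higher and 21.8% lower in CKD against Control. In CKD TRF against Control these shares were 19.5% and 17.9%.

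Markers of urothelium, which lines the renal pelvis, summed to 36.5 to 140 scaled reads in CKD TRF, 34.6 to 178 in CKD and 5.31 to 15.8 in Control, and of 8 tested all rose in CKD and 7 in CKD TRF. Over all genes, 23.6% rose in CKD and 19.5% in CKD TRF against Control. The part of the fibroblast, leukocyte and tubule markers in the Hox changes was not tested. With the urothelial level as a covariate, 7 Hox genes (6 higher, 1 lower) passed in CKD and 4 (3 higher, 1 lower) in CKD TRF against Control. Of all 13943 genes, 2545 passed in CKD and 1332 in CKD TRF with this covariate. In that fit Hoxd11 stayed at 1.68 and 1.23, Hoxb9 at 0.89 and 0.92, and Hoxa7 at −0.84 and −0.92, and all passed. Hoxd4, at 0.08 and 0.07, and Hoxa11, at 1.06 and 1.16, no longer passed. The other calls lost in CKD were those of Hoxa9, Hoxb3, Hoxc8 and Hoxd9. In CKD TRF they were those of Hoxa9, Hoxb4, Hoxb5, Hoxc6, Hoxc8 and Hoxd9. The urothelial sums of diseased and Control libraries do not overlap, so the covariate and the groups overlap too.

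Fat was present unevenly in the diseased libraries. The whole list of 8 fat markers summed to 49.7 to 393 scaled reads in CKD TRF, 85.7 to 887 in CKD and 127 to 270 in Control, and these ranges overlapped. Of 7 tested, 5 rose in CKD (71.4%) and 4 in CKD TRF (57.1%), against 23.6% and 19.5% of all genes. None passed as lower, but 2 had negative values in each comparison. With Car3, Fabp4 and Lep left aside, the other 5 markers were Adipoq, Cfd, Cidec, Plin1 and Retn. These 5 summed to 81.3, 0.398, 66.1 and 130 scaled reads in CKD TRF, 11.7, 168, 4.53 and 385 in CKD, and 0 to 1.29 in Control. Without the 6 diseased libraries above 5 times the highest Control value, 1 CKD TRF, 1 CKD and 4 Control libraries remained, and the lone libraries are assumed to vary like the others. There, the change from Control was 1.80 in CKD and 1.28 in CKD TRF for Hoxd11. Hoxb9 was at 1.11 and 1.13, Hoxa7 at −0.66 and −1.02, and Hoxd4 at 0.18 and 0.185, in the same order.

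**Figure D4:**
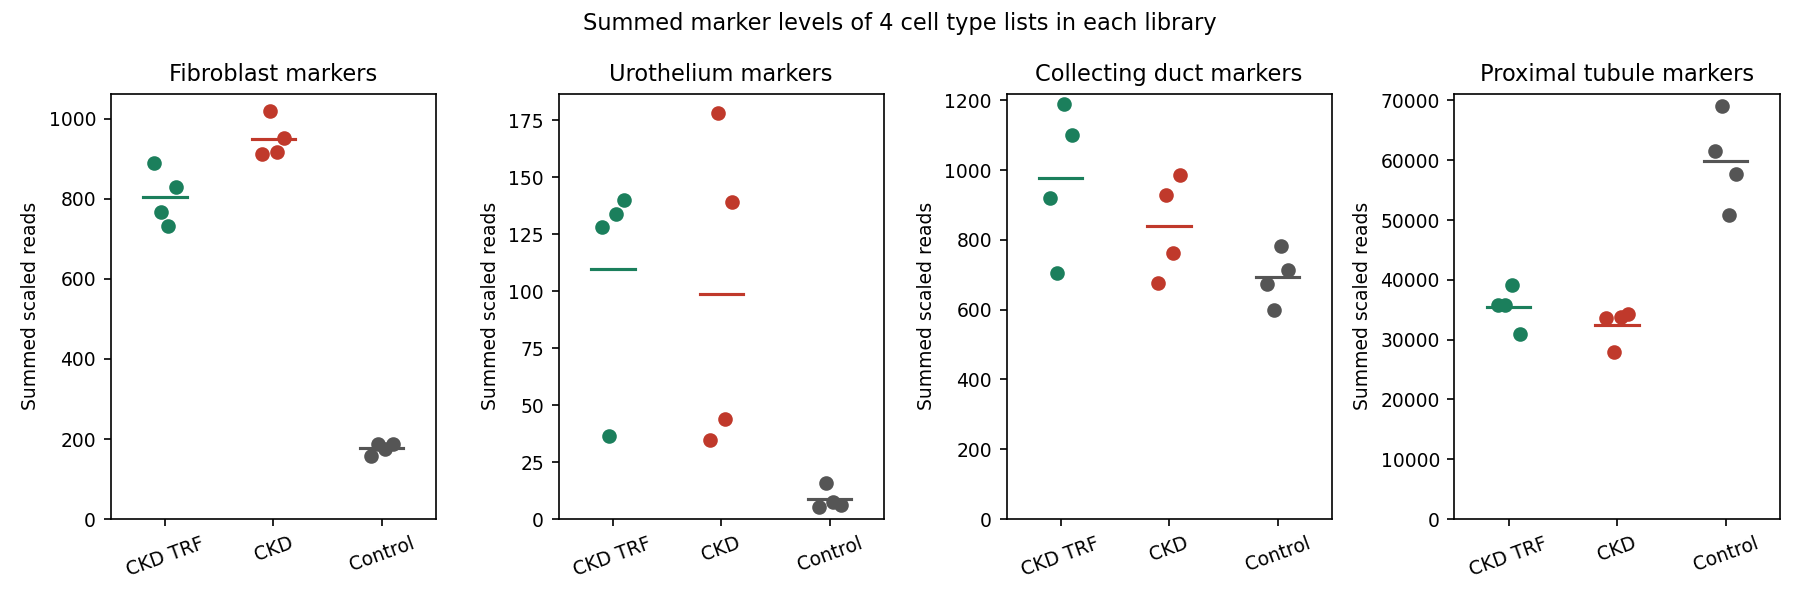
Summed scaled reads of the fibroblast, urothelium, collecting duct and proximal tubule marker lists in each library of CKD TRF, CKD and Control. Points are libraries and lines are means (n = 4). Fibroblast and urothelium sums are higher and proximal tubule sums lower in every diseased library than in every Control library.

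The scaling of the libraries bears on the direction of small changes. The deposited values sum to 987502 to 1025504 scaled reads in CKD TRF, 940904 to 978104 in CKD and 1076402 to 1179702 in Control. With all libraries brought to equal sums, the median change of all genes moved to 0.23 in CKD and 0.14 in CKD TRF against Control. In that fit 15 Hox genes were higher and 1 lower in CKD, and 13 higher and 2 lower in CKD TRF. Of all 13943 genes, 4989 were higher and 1547 lower in CKD, and 3655 and 1430 in CKD TRF. In that fit Hoxd11 changed by 1.98 in CKD and 1.45 in CKD TRF, Hoxa7 by −0.44 and −0.59, and Hoxa9 by −0.18 and −0.36, and Hoxa9 in CKD no longer passed (adjusted p = 0.134, limma). Equal sums shift all genes of a library nearly alike, so relative to the median the values are close to those reported above by construction (Hoxd11 1.75 and 1.31, Hoxa7 −0.67 and −0.74, Hoxa9 −0.41 and −0.50).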

How the data were processed

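The authors deposited 1 file per library with a log2 value for each of 23282 entries (23238 symbols, none of the Hox symbols listed more than once). The unit is not named and was read from the values: log2 of scaled reads plus 1. For 98.3% to 100% of values below 20 scaled reads, the number of reads was whole within 0.1. Bowtie2, bedtools and mm10 are named per the submitters' processing notes, and, per the labels' protocols, Trizol extraction, 500 ng of total RNA per library and the Lexogen QuantSeq kit. The strand setting, the scaling and read filters are not given in the sources used here.

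The deposited log2 values of the 3 groups were fitted in 1 model per gene with limma 3.58.1 (R 4.3.3), with the prior spread following the mean, over the upper 60% of symbols by mean (13943 genes, mean of at least 0.729), with Benjamini-Hochberg adjustment and a threshold of 0.05. Subtracting log2 values with the added 1 understates the change of genes near 0. The script was tested on simulated data. Values in every library are given for Hox genes that passed and for the most abundant of each cluster. In the other lists, up to 4 genes past the threshold were named by size of change in CKD, and Ring1, Cbx8 and Cyp26b1 were named after their values were seen. The members and lists were chosen with earlier results of these data known. Gene coordinates are RefSeq's on GRCm38.p6, and shared exons are from GENCODE vM21. A few genes that these rules would name are not reported here.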

Additional observations from a re-analysis of the deposited data

Results flagged for a closer look

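In 84 sets of 4 libraries (28 tested Hox genes in 3 groups), 2 had a library far from the other libraries of its group, and chance gives about 1 in 20 such sets. Hoxa7 had 33.1 scaled reads in CKD TRF replicate 2, against 42.6 to 44.0 in the other 3, with a gap of 0.889 of the group's range. Hoxd10 had 25.6 scaled reads in CKD replicate 4, against 32.7 to 34.2 in the other 3, a gap of 0.848 of the range.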

How the results depend on the processing

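No Hox gene that passed changed sign under an alternative: of 2079 values of 1 gene in 1 comparison under 1 alternative, 2006 kept their side of the threshold, 53 lost and 20 gained a call. Of 25 calls, 5 held in every alternative. In CKD against Control, 6333 genes and 13 Hox genes passed. With the urothelium covariate these became 2545 and 7, and without the libraries with fat markers, an alternative chosen after seeing the data, 1003 and 3. In CKD TRF against Control, 5225 genes and 12 Hox genes passed, against 1332 and 4 with the urothelium covariate and 782 and 3 without those libraries. With those libraries left out, fewer samples were fitted, and for the covariate the cause was not tested. In CKD TRF against CKD 0 genes passed, and 1 did with no filter on low values. Leaving out each library in turn gave 4396 to 5150 genes and 11 to 14 Hox genes in CKD TRF against Control, 5388 to 6311 and 11 to 14 in CKD against Control, and 0 to 1 and 0 to 0 between the diseased groups. Equal sums split the genes into 4989 higher and 1547 lower in CKD (3655 and 1430 in CKD TRF) and median centring into 2650 and 3918 (2296 and 3227), against 3297 and 3036 (2724 and 2501) as reported. The planned exclusion by the whole fat list removed no library.

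Replicate numbers do not pair the libraries: correlations of same-numbered deviations ran from −0.179 to 0.11. With the replicate number as a block, 13 and 12 Hox genes passed in CKD and CKD TRF against Control, with 6131 and 5033 genes in all, and 0 in CKD TRF against CKD.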
